A study of Mus musculus with 9 samples.

Results

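The 10 genes *Usp17la*, *Usp17lb*, *Usp17lc*, *Usp17ld*, *Usp17le*, *Tdpoz3*, *Tdpoz4*, *Tcstv3*, *Zfp352*, and *Gm5662* were examined in mouse embryonic stem cells (ESCs) with mutations in *Rbbp4*. They were chosen by symbol from a set of genes of the 2-cell-like state that lie outside the *Zscan4* cluster, with their RNA levels in these libraries known. They are 10 of 25239 gene symbols in the count tables, and all 10 were among the 14125 genes kept after a filter on low counts. RNA was sequenced from control E14 ESCs, labelled *Rbbp4* +/+, and from clones labelled *Rbbp4* Ins/Ins and *Rbbp4* Ins/Del, with 3 libraries per line. In the Ins/Ins clone both *Rbbp4* alleles have a short in-frame insertion, whereas the Ins/Del clone has this insertion on one allele and a short in-frame deletion on the other. Each mutant line is 1 clone made with CRISPR-Cas9, so a feature of the clone and an effect of its *Rbbp4* alleles cannot be told apart. All cells carried the strain label 12910la and were grown in GMEM with fetal bovine serum and LIF. No source used here says that libraries of a line came from separate cultures, and p-values then measure only the spread between these libraries, which may be technical.

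RBBP4 is a histone-binding WD40 protein found in several chromatin complexes, among them PRC2, NuRD, and the histone chaperone CAF-1. In the mouse, the embryonic genome is switched on at the 2-cell stage, and a small share of cultured ESCs passes in and out of a state in which many of the same transcripts are made. The transcription factor DUX is known to activate this program, and its targets include the *Zscan4* genes, *Zfp352*, *Tcstv* genes, *Usp17l* genes, *Tdpoz* genes, and Eif1a-like genes such as *Gm5662*. Most of these genes exist as several recently duplicated copies. In bulk RNA, more cells in the state and more RNA per cell cannot be told apart.

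The libraries held between 15838064 and 21366868 counted reads, and TMM scaling factors lay between 0.993 and 1.02. Values below are normalised counts, which are reads divided by the scaled library size and multiplied by the mean scaled library size, unless a sentence says otherwise. The mean *Rbbp4* level was 10005 ± 99.1 (SD, n = 3) in control, 5604 ± 153 in Ins/Ins, and 10359 ± 238 in Ins/Del ESCs. These counts do not show the edited bases and so do not check the genotype. Markers of ESCs were abundant in every line, with a summed level over 10 genes of 101153 to 105814 in control, 127675 to 129592 in Ins/Ins, and 126288 to 129674 in Ins/Del libraries. The summed level of 8 trophectoderm markers was 3631 to 3898, 2511 to 2700, and 1718 to 1747 in the same order, and that of 8 primitive endoderm markers was 2753 to 3013, 2570 to 2757, and 3716 to 3808. The summed level of 8 fibroblast markers was 623 to 732, 279 to 301, and 355 to 388. The part of these differences in the results below was not tested.

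RNA of the 10 genes was more abundant in both mutant lines than in control ESCs and more abundant in Ins/Del than in Ins/Ins ESCs. Their summed level was 654, 637, and 679 in the control libraries, 2150, 2156, and 2274 in the Ins/Ins libraries, and 3027, 3047, and 2977 in the Ins/Del libraries. The 3 lines did not overlap, and the mean was 3.34 times the control mean in Ins/Ins and 4.60 times in Ins/Del ESCs. Scaled to the library totals alone, as CPM, the 10 genes together were at 35.5 to 37.4 in control, 118 to 124 in Ins/Ins, and 162 to 166 in Ins/Del libraries. Each of the 10 genes showed the order control, Ins/Ins, Ins/Del with no overlap between the libraries of any pair of lines.

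**Figure D1:**
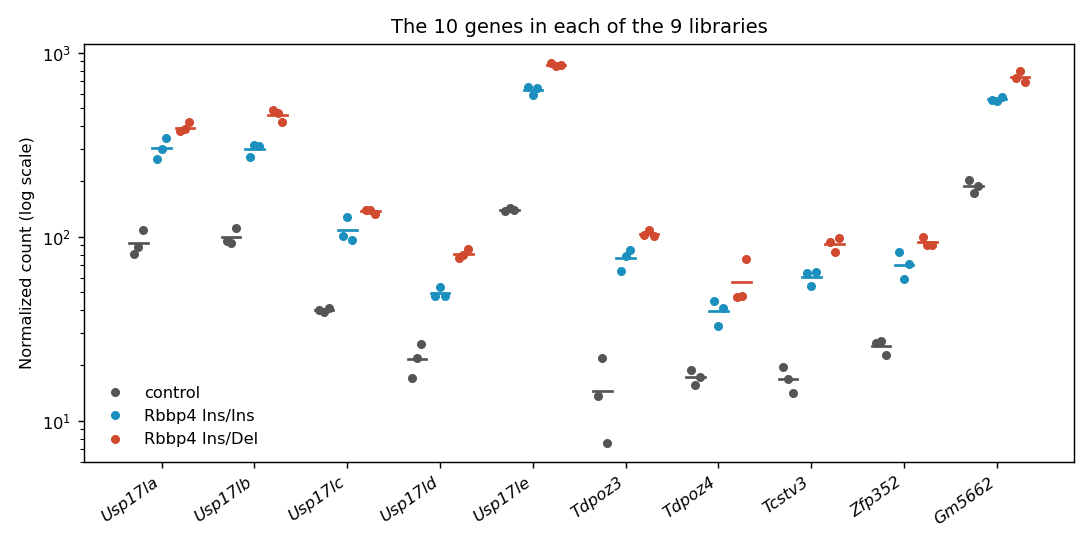
Normalised count (log scale) of each of the 10 genes in the 9 libraries, with points for libraries, bars for the mean of the 3 libraries of a line, and colour for the line. For every gene the 3 control points lie below the 3 Ins/Ins points, which lie below the 3 Ins/Del points.

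The genes had been chosen with their levels in these libraries known, and may have been chosen for this pattern. These counts are therefore a description, and no test of the 10 genes is given. Of all 14125 genes tested, 34.9% had every Ins/Ins library above every control library, 35.9% had every Ins/Del library above every control library, and 17.4% had every Ins/Del library above every Ins/Ins library. At the limit used for all genes, an adjusted p of at most 0.01 in edgeR's quasi-likelihood test, 10 of the 10 were higher in Ins/Ins than in control ESCs beside 29.0% of all tested genes. In Ins/Del against control, 10 of the 10 were past the limit beside 30.6% of all tested genes. In Ins/Del against Ins/Ins, 6 of the 10 were past it beside 6.17%. The shares of all tested genes that were lower past the limit were 29.4%, 31.9%, and 4.64% in these comparisons, and 0 of the 10 were among them. *Tdpoz3* passed the filter on low counts only with its mutant libraries, so the filter in part set its place in these counts.

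The fitted log2 fold changes had a median of 1.57 over the 10 genes in Ins/Ins against control, with 0.0038 over all tested genes. In Ins/Del against control the median was 2.03, with -0.011 over all tested genes, and in Ins/Del against Ins/Ins it was 0.46, with -0.0035 over all tested genes. *Tdpoz4* had the lowest and *Tdpoz3* the highest value in both comparisons with control, from 1.19 to 2.38 in Ins/Ins and from 1.68 to 2.84 in Ins/Del. Between the mutants the values ran from 0.35 for *Usp17lc* to 0.70 for *Usp17ld*. Both comparisons with control use the same 3 control libraries.

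**Figure D2:**
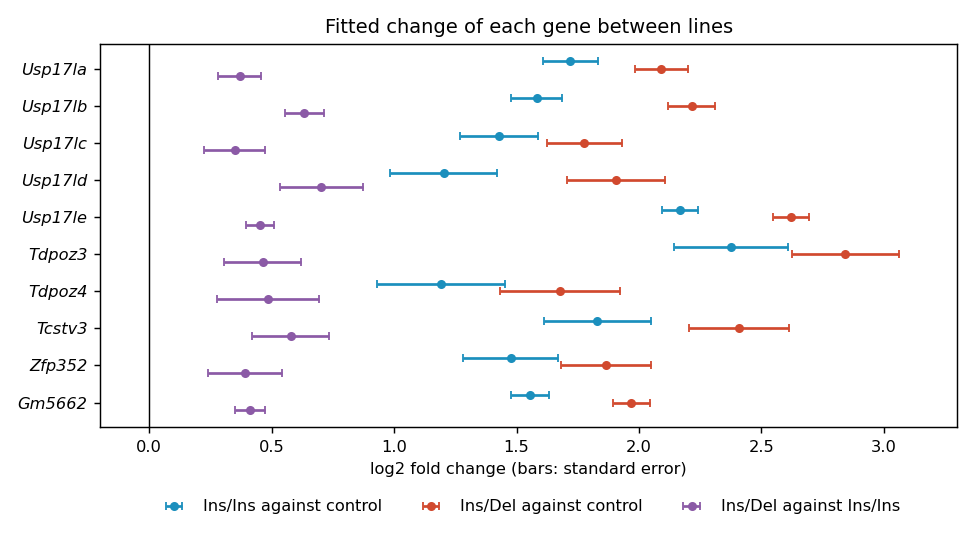
Fitted log2 fold change (horizontal axis) of each gene, with bars for the standard error, for Ins/Ins against control, Ins/Del against control, and Ins/Del against Ins/Ins. All 30 points lie above 0, and for every gene the Ins/Del value is above the Ins/Ins value.

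The *Usp17l* genes, also called DUB genes, encode ubiquitin-specific proteases that remove ubiquitin from proteins. The annotation (GENCODE M21, GRCm38) places all 5 on chromosome 7 as protein-coding genes. *Usp17ld* lies at chr7:103249737-103252505 on the minus strand and *Usp17lc* at chr7:103415072-103419880 on the plus strand. *Usp17le* lies at chr7:104768049-104777470 (minus), *Usp17lb* at chr7:104840257-104842603 (minus), and *Usp17la* at chr7:104857009-104862667 (plus). Coding sequences of *Usp17lc* and *Usp17ld* were 98.4% identical, and the other pairs ranged from 78.4% to 90.8%. Identity of coding sequences, here and below, is the share of all aligned columns, with gaps counted as differences. Pairs of unequal length therefore score lower. The pair at 78.4%, *Usp17lb* and *Usp17lc*, had 1285 identical bases, with coding lengths of 1407 and 1638. The stretch of 63 coding bases around the codon of the catalytic cysteine shows how close the copies are, and how few bases tell reads of one from reads of another there. It is read 5′ to 3′ from the annotated transcripts, with a capital at each base that differs from the base in most of the 5 genes.
Usp17la: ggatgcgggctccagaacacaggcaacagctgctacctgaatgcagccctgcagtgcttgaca
Usp17lb: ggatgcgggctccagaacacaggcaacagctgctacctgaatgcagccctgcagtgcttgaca
Usp17lc: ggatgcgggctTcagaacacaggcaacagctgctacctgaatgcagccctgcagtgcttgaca
Usp17ld: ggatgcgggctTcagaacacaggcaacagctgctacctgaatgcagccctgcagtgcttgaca
Usp17le: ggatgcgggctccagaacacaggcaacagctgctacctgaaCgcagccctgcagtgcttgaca
In this stretch *Usp17la* and *Usp17lb* were identical, as were *Usp17lc* and *Usp17ld*, and *Usp17le* differed from the first pair by 1 base. The cysteine is codon 60 in *Usp17la* to *Usp17ld* and codon 94 in *Usp17le*, whose annotated coding sequence starts further upstream.

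The summed level of the 5 *Usp17l* genes was 371, 383, and 428 in the control libraries, 1339, 1387, and 1442 in the Ins/Ins libraries, and 1956, 1918, and 1922 in the Ins/Del libraries. The mean was 3.53 times the control mean in Ins/Ins and 4.90 times in Ins/Del ESCs, and the Ins/Del mean was 1.39 times the Ins/Ins mean. *Usp17le* had the most reads of the 5, with 138, 142, and 140 in the control libraries, 653, 590, and 642 in the Ins/Ins libraries, and 879, 846, and 862 in the Ins/Del libraries. Its lowest Ins/Ins library was 4.14 times its highest control library. The fitted log2 fold change of *Usp17le* was 2.17 (SE 0.075) in Ins/Ins and 2.62 (SE 0.072) in Ins/Del, the largest in the family.

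*Usp17la* was at 80.4, 88.0, and 109 in the control libraries, 265, 301, and 346 in the Ins/Ins libraries, and 373, 383, and 419 in the Ins/Del libraries. The gap between the highest Ins/Ins and the lowest Ins/Del library was narrow, with a ratio of 1.08. *Usp17lb* had similar levels in control ESCs, from 92.2 to 112, and was at 271 to 314 in Ins/Ins and 422 to 488 in Ins/Del libraries. Its log2 fold change between the mutants, 0.63 (SE 0.079), stood beside 0.37 (SE 0.088) for *Usp17la*, and the difference between the genes was not tested.

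*Usp17lc* and *Usp17ld*, the near-identical pair, had the fewest reads of the family. *Usp17lc* was at 38.8 to 41.1 in control, 96.2 to 129 in Ins/Ins, and 133 to 140 in Ins/Del libraries, and its highest Ins/Ins library came within a ratio of 1.03 of its lowest Ins/Del library. *Usp17ld* was at 17.1 to 26.0 in control, 47.6 to 53.0 in Ins/Ins, and 76.7 to 85.6 in Ins/Del libraries. The log2 fold changes of *Usp17lc* were 1.43 (SE 0.16) in Ins/Ins and 1.78 (SE 0.15) in Ins/Del. Those of *Usp17ld* were 1.20 (SE 0.22) and 1.91 (SE 0.20).

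The make-up of the family differed between the lines. *Usp17le* held 35.7% ± 2.65 (SD, n = 3) of the reads of the 5 genes in control, 45.3% ± 3.21 in Ins/Ins, and 44.6% ± 0.455 in Ins/Del ESCs, and every mutant library was above every control library. *Usp17lc* went the other way, with 10.2% ± 0.608, 7.83% ± 1.33, and 7.11% ± 0.184, as did *Usp17ld*, with 5.47% ± 0.769, 3.57% ± 0.263, and 4.17% ± 0.269. For both, every mutant library was below every control library. The share of *Usp17la* was 23.4% ± 1.99, 21.8% ± 2.08, and 20.3% ± 1.38, with overlap between control and each mutant. *Usp17lb* had 25.2% ± 1.06, 21.5% ± 1.18, and 23.8% ± 1.59, and its Ins/Del libraries overlapped the control libraries.

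**Figure D3:**
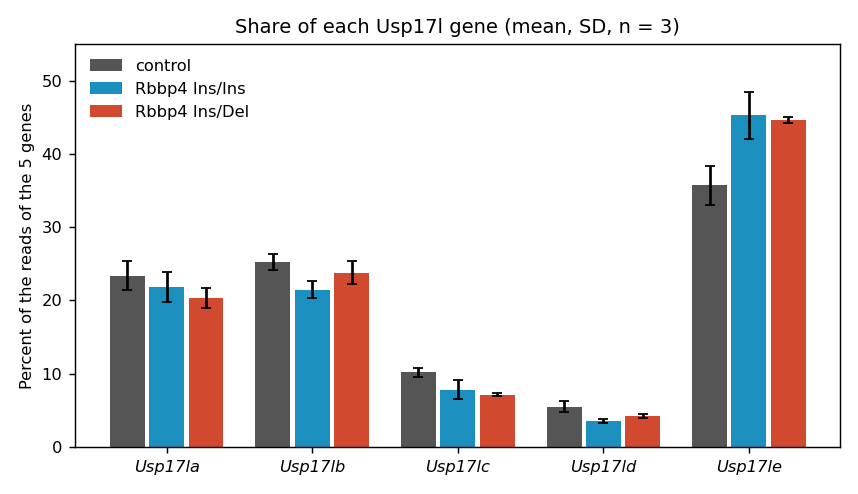
Percent of the reads of the 5 *Usp17l* genes that each gene held, as the mean of 3 libraries per line with the SD as error bar. *Usp17le* held 35.7% in control and 45.3% and 44.6% in the mutants, and *Usp17lc* and *Usp17ld* held less in both mutants than in control.

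Promoter windows from RefSeq (GRCm38) were at hand for 6 of the 10 genes, *Usp17la*, *Usp17lb*, *Usp17lc*, *Usp17ld*, *Tdpoz4*, and *Zfp352*. The 4 *Usp17l* windows share a block of 102 bases with 93.1% to 96.1% identity between pairs, shown because these genes, on both strands of 2 groups on the chromosome, were all higher in the mutants. Capitals mark the letters CACACCC, of the CACCC kind, ATTGG, the CCAAT box on the other strand, and TATAAA, of the TATA box. The blocks lie at chr7:104856883-104856984 (plus strand) for *Usp17la*, chr7:104842600-104842701 (minus) for *Usp17lb*, chr7:103416521-103416622 (plus) for *Usp17lc*, and chr7:103252601-103252702 (minus) for *Usp17ld*, and each is printed 5′ to 3′ in the direction of its gene. The windows are set by RefSeq starts, which lie 7, 20, 1624, and 0 bases downstream of the GENCODE starts in this order of genes. The *Usp17lc* block therefore lies within an intron of the longer GENCODE model, and 4 bases of the *Usp17lb* block fall in its GENCODE exon.
Usp17la: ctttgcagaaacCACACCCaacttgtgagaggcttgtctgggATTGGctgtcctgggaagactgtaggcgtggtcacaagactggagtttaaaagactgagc
Usp17lb: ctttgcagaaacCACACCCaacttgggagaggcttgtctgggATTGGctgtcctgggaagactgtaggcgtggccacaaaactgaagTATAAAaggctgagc
Usp17lc: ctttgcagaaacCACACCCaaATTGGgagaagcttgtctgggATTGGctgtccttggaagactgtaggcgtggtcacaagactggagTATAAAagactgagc
Usp17ld: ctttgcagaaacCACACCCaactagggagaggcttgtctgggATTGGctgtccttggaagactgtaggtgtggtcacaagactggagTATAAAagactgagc
Each block was cut to begin and end at runs of bases common to all 4 windows, and the identity between pairs includes these bases. The run at the start ends in CACACCC, so the cut itself put these letters at the same place in each block. ATTGG was at the same place in all 4 blocks, *Usp17lc* held it a second time, and TATAAA was in all blocks but that of *Usp17la*. Of 32851 windows of 300 bases, 7.95% held CACACCC on either strand, 37.4% held ATTGG, and 13.6% held TATAAA. A match of letters is a description and not a binding site.

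*Tdpoz3* and *Tdpoz4* encode proteins with TRAF-type and BTB/POZ domains, related to the ubiquitin ligase adaptor SPOP, and are neighbouring single-exon genes on chromosome 3. *Tdpoz4* lies at chr3:93796398-93797510 and *Tdpoz3* at chr3:93826020-93827117, both on the plus strand. Their coding sequences were 76.6% identical to each other, and 68.9% identical to *Spop*. *Tdpoz3* was at 13.7, 22.0, and 7.58 in the control libraries, 65.0, 79.0, and 84.6 in the Ins/Ins libraries, and 102, 109, and 101 in the Ins/Del libraries. Its control libraries, with 7 to 21 reads each, spread more widely than those of the other genes. They alone would not have passed the filter on low counts, so *Tdpoz3* was kept through its mutant libraries. *Tdpoz3* had the largest log2 fold changes of the 10 genes, 2.38 (SE 0.23) in Ins/Ins and 2.84 (SE 0.22) in Ins/Del.

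*Tdpoz4* was at 18.8, 15.7, and 17.3 in the control libraries, 44.5, 32.7, and 41.2 in the Ins/Ins libraries, and 47.0, 47.8, and 75.2 in the Ins/Del libraries. The third Ins/Del library stood above the other two, which were just over the highest Ins/Ins library, with a ratio of 1.06. The log2 fold changes of *Tdpoz4* were 1.19 (SE 0.26) and 1.68 (SE 0.24), the smallest of the 10. Summed, the pair was at 24.9 to 37.7 in control, 109 to 126 in Ins/Ins, and 149 to 176 in Ins/Del libraries, 3.65 and 5.07 times the control mean. *Tdpoz3* held 43.6% ± 14.0 (SD, n = 3) of the reads of the pair in control, 65.8% ± 5.80 in Ins/Ins, and 65.1% ± 6.82 in Ins/Del ESCs, and its share in the Ins/Del libraries, which began at 57.2%, overlapped that in the control libraries, which reached 58.3%. The other *Tdpoz* genes had few reads and were not tested. *Tdpoz1* had 0, 0, and 1 reads in the control libraries, 3, 1, and 1 in the Ins/Ins libraries, and 4, 9, and 3 in the Ins/Del libraries. *Tdpoz2* had 0 reads in each control library and at most 4 in any library, and *Tdpoz5* had 0 reads in all 9.

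*Tcstv3* belongs to the 2-cell-stage variable group and lies at chr13:120316878-120318178 on the plus strand. Its coding sequence was 94.8% identical to *AF067061*, 94.5% to *Gm21818*, 93.6% to *Tcstv1*, and 92.6% to *Gm20767*, which lie in the same family. *Tcstv3* was at 19.7, 16.8, and 14.1 in the control libraries, 63.3, 54.2, and 64.5 in the Ins/Ins libraries, and 94.0, 82.1, and 98.3 in the Ins/Del libraries. The 3 lines were well apart, with the lowest Ins/Ins library at 2.75 times the highest control library and the lowest Ins/Del library at 1.27 times the highest Ins/Ins library. Its log2 fold changes were 1.83 (SE 0.22) in Ins/Ins and 2.41 (SE 0.20) in Ins/Del. *Tcstv1* had too few reads to be tested, with 1 or 2 in each control library, 6, 4, and 0 in the Ins/Ins libraries, and 10, 8, and 5 in the Ins/Del libraries.

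*Zfp352* encodes a zinc finger protein of the 2-cell embryo and lies at chr4:90218820-90225702 on the plus strand. It was at 26.5, 27.2, and 22.7 in the control libraries, 82.1, 58.7, and 70.8 in the Ins/Ins libraries, and 100.2, 90.2, and 90.2 in the Ins/Del libraries. All mutant libraries stood well above the control libraries, whereas the highest Ins/Ins library lay close under the lowest Ins/Del library, with a ratio of 1.10. The log2 fold changes were 1.48 (SE 0.19) in Ins/Ins and 1.87 (SE 0.19) in Ins/Del. Between the mutants the value was 0.39 (SE 0.15).

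The 250 bases before the annotated start of *Zfp352*, chr4:90218570-90218819 on the plus strand, are shown because most of them are a short repeat that no other promoter window held as often. Capitals mark TAATCC, the core letters bound by OTX-type homeodomain proteins.
Zfp352: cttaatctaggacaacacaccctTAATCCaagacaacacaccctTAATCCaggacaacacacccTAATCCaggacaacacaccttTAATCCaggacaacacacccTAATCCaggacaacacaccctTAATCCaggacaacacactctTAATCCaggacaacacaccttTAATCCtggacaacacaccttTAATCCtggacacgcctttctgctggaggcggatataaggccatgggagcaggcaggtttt
The stretch holds 9 copies of TAATCC and 9 of GACAACACAC, which do not overlap each other, while the letters CACACCC found in it overlap the latter. On either strand, 7.06% of the 32851 windows held TAATCC at least once, and 1 window, that of *Zfp352*, held it 9 times or more. GACAACACAC was in 17 windows, or 0.0517%.

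*Gm5662* is one of a group of genes derived from *Eif1a*-type sequences, which encode a factor that scans for the start codon in translation, and lies at chr12:88270640-88274500 on the minus strand. Its coding sequence was 84.8% identical to *Eif1ax* and 99.1% to *Gm2016*, 98.4% to *Gm2022*, and 98.2% to *Gm8300*, which belong to the same group. *Gm5662* was at 204, 172, and 189 in the control libraries, 556, 545, and 571 in the Ins/Ins libraries, and 728, 799, and 691 in the Ins/Del libraries. The 3 lines did not overlap, and the lowest Ins/Ins library was 2.67 times the highest control library. The log2 fold changes were 1.56 (SE 0.078) in Ins/Ins and 1.97 (SE 0.075) in Ins/Del.

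Per kilobase of annotated exon, *Gm5662* had the highest level of the 10 in control ESCs, with 102 ± 8.85 (SD, n = 3), followed by *Usp17le* with 70.6 ± 1.03 and *Usp17lb* with 63.8 ± 6.70, whose libraries overlapped. *Usp17la* came next with 34.9 ± 5.66 and *Tcstv3* with 21.6 ± 3.59. *Usp17lc* (16.3 ± 0.489), *Tdpoz4* (15.5 ± 1.39), and *Tdpoz3* (13.1 ± 6.59) overlapped each other, and *Tdpoz3* overlapped *Tcstv3*, *Zfp352* (11.2 ± 1.06), and *Usp17ld* (10.9 ± 2.24) as well. In Ins/Ins ESCs *Usp17le*, at 316 ± 16.9, and *Gm5662*, at 303 ± 7.04, led and overlapped. In Ins/Del ESCs they were at 434 ± 8.26 and 402 ± 30.0 per kilobase and overlapped again. *Tdpoz3* moved up from the eighth place in control to the sixth in both mutants, with 69.4 ± 9.18 and 94.7 ± 4.13 per kilobase. At the low end, *Usp17ld*, with 24.9 ± 1.54 in Ins/Ins and 40.5 ± 2.31 in Ins/Del ESCs, overlapped *Zfp352*, with 31.0 ± 5.15 and 41.1 ± 2.52. These levels count annotated length in full, although part of it is shared with other genes.

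How reads that match more than 1 gene were counted is not given in the sources used here. To see where this matters, every run of 50 bases, the read length, in the annotated transcripts of a gene was looked up in all other annotated genes on both strands. *Zfp352* was the most distinct, with 92.9% of its runs in no other gene, followed by *Usp17la* with 79.9%, *Usp17lb* with 78.6%, *Usp17le* with 70.2%, and *Tcstv3* with 68.6%. *Usp17lc* shared 41.5% of its runs with *Usp17ld*, and *Usp17ld* shared 50.4% with *Usp17lc*. *Tdpoz4* had 58.8% to itself and shared 31.0% with *Gm5541*, and *Tdpoz3* had 33.8% to itself and shared 66.2% with *Gm4982*. *Gm5662* had 22.1% to itself and shared 72.1% with *Gm2016*, so its value and those of its relatives are uncertain as single-gene values. The gene that is most distinct, *Zfp352*, had log2 fold changes of 1.48 and 1.87, near the medians of the 10 genes. No exon of the 10 genes overlapped an exon of another annotated gene.

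**Figure D4:**
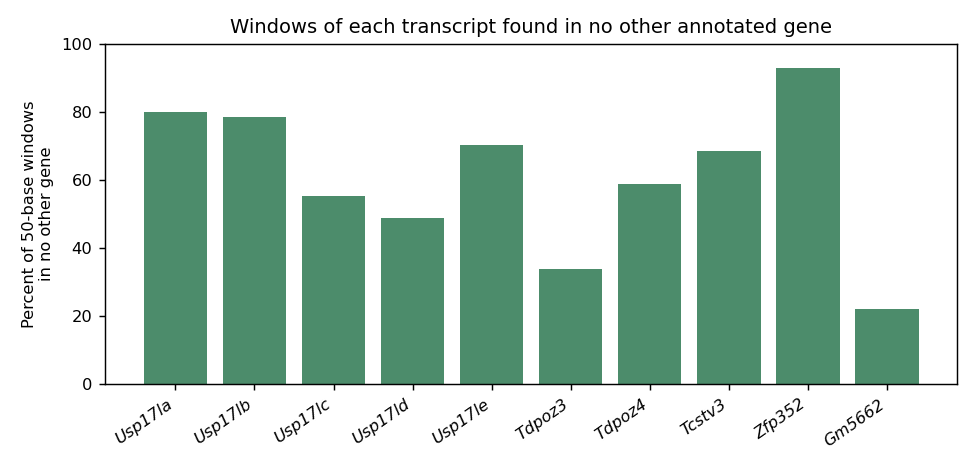
Percent of the runs of 50 bases in each gene's annotated transcripts that were found in no other annotated gene. *Zfp352* is at 92.9%, the *Usp17l* genes range from 48.9% to 79.9%, and *Gm5662* is lowest at 22.1%.

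A list of 57 other genes of the 2-cell-like state outside the *Zscan4* cluster was examined in the same fit. Of these, 53 symbols were in the tables, 39 had reads, and 28 could be tested. In Ins/Ins against control, 25 were higher, 1 was lower, and 2 did not pass the limit of 0.01, beside the 29.0% higher and 29.4% lower of all tested genes, with a median log2 fold change of 1.55. In Ins/Del against control, 27 were higher and 1 did not pass, beside 30.6% higher of all tested genes, with a median of 1.91. In Ins/Del against Ins/Ins, 9 were higher and 19 did not pass, beside 6.17% higher of all tested genes, with a median of 0.33. The list and the 10 genes share families and, in part, reads, so it is not independent of them. Some of its genes passed the filter on low counts only through their mutant libraries. Among them were *Trim43a*, with 2, 3, and 3 reads in the control libraries, and *B020031M17Rik*, with 6, 3, and 2. Such genes could hardly be called lower, so the filter in part set these counts and their p-values.

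**Figure D5:**
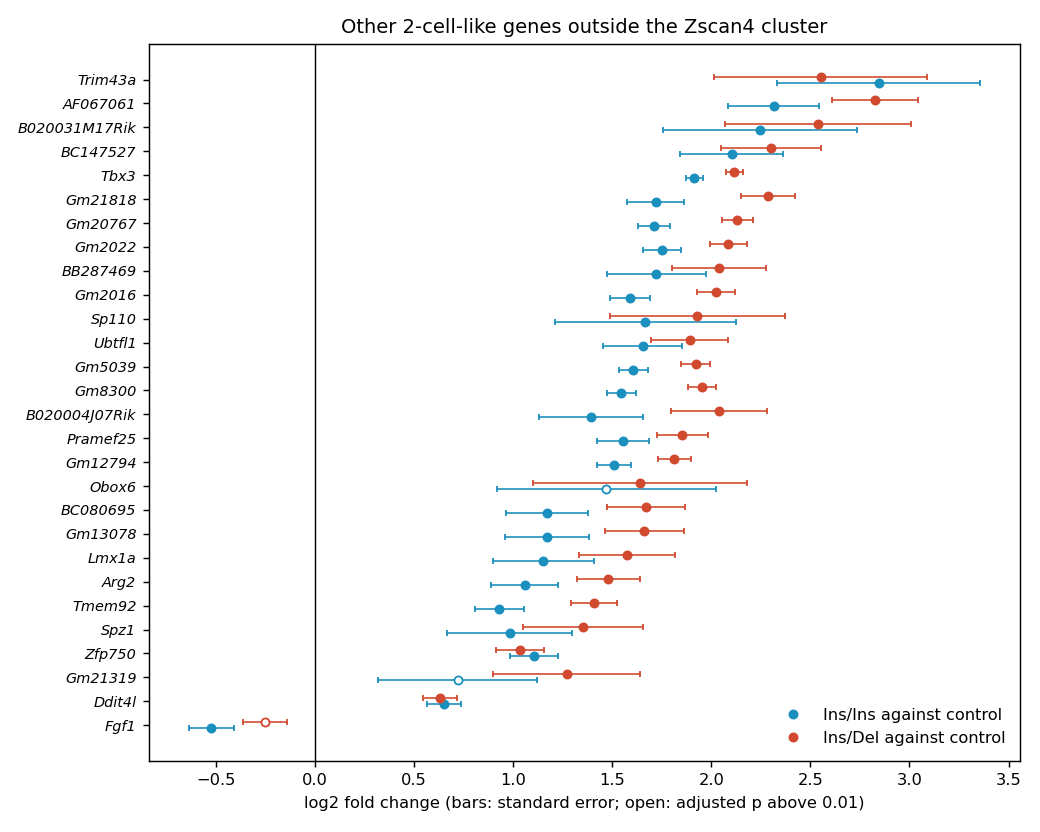
Fitted log2 fold change (horizontal axis) of the 28 tested genes of the list against control, with bars for the standard error, blue for Ins/Ins and red for Ins/Del, and open points for genes with an adjusted p above 0.01. In Ins/Ins 25 points are past the limit above 0 and *Fgf1* is past it below 0, and in Ins/Del 27 are past the limit above 0.

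Among the relatives of *Gm5662*, *Gm8300* rose from 204 ± 15.4 (SD, n = 3) in control to 596 ± 39.0 in Ins/Ins (edgeR adjusted p = 6.77e-21) and 792 ± 19.3 in Ins/Del ESCs (edgeR adjusted p = 6.84e-25). *Gm5039* rose from 183 ± 10.2 to 558 ± 13.6 (edgeR adjusted p = 1.90e-21) and 693 ± 27.2 (edgeR adjusted p = 1.64e-24). Among the relatives of *Tcstv3*, *AF067061* rose from 13.2 ± 3.48 to 67.5 ± 7.43 (edgeR adjusted p = 2.35e-11) and 95.4 ± 10.5 (edgeR adjusted p = 1.23e-14). *BC147527* rose from 13.0 ± 1.51 to 56.2 ± 8.80 and 64.2 ± 17.2, with edgeR adjusted p-values of 4.14e-09 and 2.35e-10.

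*Trim43a* had the largest change on the list in Ins/Ins, with 2, 3, and 3 reads in the control libraries, 22, 12, and 25 in the Ins/Ins libraries, and 11, 12, and 24 in the Ins/Del libraries. Its log2 fold changes were 2.85 (SE 0.51, edgeR adjusted p = 7.19e-06) and 2.55 (SE 0.54, edgeR adjusted p = 6.63e-05). *B020031M17Rik* rose with log2 fold changes of 2.24 and 2.54 (edgeR adjusted p = 0.000118 and 9.59e-06). *Tbx3*, a T-box factor that also takes part in the pluripotency network, had the most reads of the list and rose from 740 ± 19.7 to 2787 ± 105 and 3205 ± 115, with edgeR adjusted p-values of 1.37e-31 and 2.57e-33.

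The gene that was lower, *Fgf1*, fell by 0.52 on the log2 scale in Ins/Ins ESCs (edgeR adjusted p = 0.000114). In Ins/Del ESCs its log2 fold change was -0.25, with an edgeR adjusted p of 0.0403. *Obox6* and *Gm21319* did not pass the limit in Ins/Ins, with edgeR adjusted p-values of 0.0186 and 0.109. In Ins/Del they passed it at 0.00706 and 0.00257, and leaving out 1 library undid the call for *Obox6* in 4 of 9 fits and for *Gm21319* in 3 of 9.

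The *Zscan4* genes, which encode SCAN-domain zinc finger proteins tied to telomere upkeep in ESCs, were higher in both mutants for 5 of 5 tested genes, with median log2 fold changes of 1.28 in Ins/Ins and 1.78 in Ins/Del. Of all tested genes, 29.0% and 30.6% were higher past the limit in these comparisons. In Ins/Del against Ins/Ins all 5 were higher past the limit, beside 6.17% of all tested genes. Their median was 0.52, beside 0.46 for the 10 genes.

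Of 8 regulators tied to entry into the state, 6 could be tested, and 4 were higher, 1 was lower, and 1 did not pass the limit in each mutant. Beside these counts, 29.0% of all tested genes were higher and 29.4% lower in Ins/Ins, and 30.6% and 31.9% in Ins/Del. *Dux* had 13, 5, and 7 reads in the control libraries, 18, 16, and 19 in the Ins/Ins libraries, and 20, 17, and 14 in the Ins/Del libraries. Every mutant library was above every control library. Its log2 fold change was 1.10 (SE 0.37, edgeR adjusted p = 0.00834) in Ins/Ins and 1.07 (SE 0.37, edgeR adjusted p = 0.0102) in Ins/Del, just inside and just outside the limit. Leaving out 1 library undid the Ins/Ins call in 8 of 9 fits, and only leaving out the first control library kept it. The call was also lost with DESeq2 and without the filter on low counts. *Dux* passed that filter only with its mutant libraries and could hardly be called lower, so the filter in part set its p-values. *Dppa2*, a chromatin factor that acts on the *Dux* promoter, rose by a log2 fold change of 0.19 in Ins/Ins and 0.30 in Ins/Del (edgeR adjusted p = 3.20e-05 and 5.73e-09). *Dppa4*, its partner, fell by 0.19 and 0.16 on the log2 scale (edgeR adjusted p = 2.99e-05 and 0.000302). *Nelfa*, a pausing factor, rose by 0.22 and 0.25, and *Smarca5*, an ISWI remodeller, rose by 0.13 and 0.24 on the log2 scale. *Zfp281* had a log2 fold change of 0.02 in Ins/Ins (edgeR adjusted p = 0.66) and rose by 0.15 in Ins/Del (edgeR adjusted p = 2.12e-05).

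Of 29 genes known to restrain the state, all tested, 10 were higher, 8 were lower, and 11 did not pass the limit in Ins/Ins, and the counts were the same in Ins/Del. As shares of the list, these lie near those of all tested genes, of which 29.0% were higher and 29.4% lower in Ins/Ins and 30.6% and 31.9% in Ins/Del. The median log2 fold change was 0.011 in Ins/Ins and 0.015 in Ins/Del. *Lin28a*, an RNA-binding protein, had the largest change and fell from 13714 ± 229 in control to 5097 ± 145 in Ins/Ins and 4674 ± 135 in Ins/Del ESCs, with edgeR adjusted p-values of 1.64e-32 and 7.98e-34. *Zmym2*, a zinc finger protein of LSD1 complexes, fell by 0.74 and 0.68 on the log2 scale, and *E2f6*, a subunit of a Polycomb complex, fell by 0.66 and 0.73. *Hdac2*, a histone deacetylase, rose by 0.47 and 0.61, and *Mga*, a scaffold of the same Polycomb complex as E2F6, rose by 0.41 and 0.50. The most abundant of the list, *Ncl*, *Trim28*, and *Rif1*, had log2 fold changes of 0.07, 0.09, and -0.24 in Ins/Ins and 0.09, 0.13, and -0.14 in Ins/Del, all past the limit. The Ins/Ins call for *Ncl* (edgeR adjusted p = 0.00903) was lost in 7 of 15 alternative fits, and its Ins/Del call in 2. The list also holds *Rbbp4* itself.

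Genes outside the 10 with a profile most like their summed level were ranked by the root mean square difference of centred log2 values over the 9 libraries, among 12702 genes with a mean of at least 20. The 5 nearest were *Tmem64* (0.078), *Oas1a* (0.083), *Adap1* (0.084), *Gm20767* (0.086), and *Slc25a20* (0.089). *Tmem64* was at 1901 in control, 5942 in Ins/Ins, and 7894 in Ins/Del ESCs. The nearest gene was *Slc25a20* for the *Usp17l* sum (0.067), *Gm2022* for the *Tdpoz* sum (0.117), *Slc5a1* for *Tcstv3* (0.104), *Notum* for *Zfp352* (0.104), and *Tmem64* for *Gm5662* (0.062). The 10 genes themselves lay between 0.111 for *Usp17lb* and 0.489 for *Tdpoz3* from their sum. The 5 nearest genes outside were picked from 12702 by this distance and the 10 were not, so the distances cannot be set against each other.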

How the data were processed

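Total RNA of control ESCs and of the Ins/Ins and Ins/Del clones (3 libraries each) was prepared with the Kapa mRNA HyperPrep kit, sequenced as paired-end 50 bp reads, aligned by the authors to mm10 with STAR 2.7.3, and counted per gene with HTSeq. Its version, strand setting, and annotation are not given in the sources used here. The deposited values are whole-number counts per gene symbol, not normalized. The authors used DESeq2 1.22.2.

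Here edgeR 4.0.16 in R 4.3.3 fitted its quasi-likelihood model with TMM scaling to all 9 libraries and 14125 genes kept by filterByExpr. P-values were adjusted by Benjamini-Hochberg over these genes, with a limit of 0.01. The code was tested on simulated data. Alternatives were DESeq2 1.42.0, other scaling, no filter, 2 groups alone, a replicate block, a limit of 0.05, and leaving out each library. No libraries of a line were copies of each other (chi-square per gene of 1.90 to 4.83). Depth limits precision, as some genes had under 25 reads in a control library.

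The 10 genes and the lists were chosen with earlier results of these data known. All 10 are named, with every tested regulator of entry into the state, *Rbbp4*, and from each list up to 3 genes of highest mean and up to 5 of largest change past the limit in both mutants, among which the text gives those that bear on the 10. *Fgf1*, *Obox6*, *Gm21319*, and untested relatives were named after their values were seen.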

Additional observations from a re-analysis of the deposited data

Results flagged for a closer look

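Among other 2-cell-like genes, *Zscan4* genes, entry regulators, and restrainers, 22 genes differed between Ins/Del and Ins/Ins ESCs. Tested genes on these lists numbered 28, 5, 6, and 29 in this order. The call was made by edgeR's test of the contrast at an adjusted p of at most 0.01. Of all tested genes, 6.17% were higher and 4.64% lower past this limit. Genes of the marker lists are not counted here. Values are log2 differences, Ins/Del minus Ins/Ins.

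Among relatives of *Gm5662* they were 0.34 for *Gm2022*, 0.41 for *Gm8300*, 0.43 for *Gm2016*, and 0.31 for *Gm5039*. Among relatives of *Tcstv3* they were 0.42 for *Gm20767* and 0.57 for *Gm21818*. *Gm12794*, *Tmem92*, and *Tbx3* were at 0.30, 0.48, and 0.20. The 5 *Zscan4* genes were at 0.51 (*Zscan4a*), 0.52 (*Zscan4b*), 0.42 (*Zscan4c*), 0.62 (*Zscan4d*), and 0.58 (*Zscan4f*).

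Of the regulators tied to entry into the state, *Smarca5* was at 0.12 and *Zfp281* at 0.14. Of the restrainers, *Rbbp4* itself was at 0.89, *Myc* at 0.43, and *Hdac2* at 0.14, while *Lin28a* was at -0.13, *Pias4* at -0.20, and *Rbbp7* at -0.15. Leaving out 1 library undid the call in 4 of 9 fits for *Smarca5*, *Hdac2*, and *Pias4*, in 3 for *Lin28a*, in 2 for *Gm2022* (without Ins/Del replicate 2 or Ins/Ins replicate 1), and in 1 for *Gm12794* (without Ins/Ins replicate 2). No group here had 4 or more libraries, so single libraries were not tested as outliers.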

How the results depend on the processing

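Over 15 alternative fits the log2 fold changes of the 10 genes kept their direction, from 1.04 to 2.78 in Ins/Ins, 1.45 to 3.25 in Ins/Del, and 0.25 to 0.75 between the mutants. Ratios of the summed levels were computed again only with other scalings and with 1 library left out. They moved by less than the spread between libraries. The number of the 10 past the limit stayed at 10 in both comparisons with control. Between the mutants it went from 6 to 3 with DESeq2 and ranged from 3 to 6 when 1 library was left out, with 3 without Ins/Del replicate 3 or Ins/Ins replicate 1.

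At a limit of 0.05, the list of other 2-cell-like genes had 1 gene lower in Ins/Del against control in place of 0, and 15 higher between the mutants in place of 9, and 6 restrainers were higher between the mutants in place of 3. With only the 2 groups compared, 5 restrainers were higher between the mutants. Leaving out 1 library gave 1 to 2 entry regulators higher between the mutants (1 without any Ins/Del library or Ins/Ins replicate 1), 2 to 5 restrainers higher (5 without control replicate 3), and 1 to 3 restrainers lower (1 without Ins/Del replicate 2 or Ins/Ins replicate 3). The cause was not tested. No result changed direction.

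The replicate numbers did not pair the libraries: same-numbered libraries of different lines had deviations from their line means that correlated at -0.028 to 0.056. With the replicate block, 10, 10, and 6 of the 10 genes were past the limit in the 3 comparisons, and 25, 27, and 9 of the other 2-cell-like genes were higher, as without it. Among the lists, the block moved 1 count, restrainers higher in Ins/Ins, from 10 to 9. Genes with few reads, such as *Dux* and *Tdpoz3*, have the widest errors.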

Other observations

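Markers of other cell types did not move as 1 group beside the 10 genes. For the counts that follow, the shares of all tested genes past the limit were 29.0% upward and 29.4% downward for Ins/Ins, with 30.6% and 31.9% for Ins/Del. In Ins/Ins ESCs 2 of 7 tested trophectoderm markers were higher and 4 were lower, and in Ins/Del ESCs 1 was higher and 5 were lower. *Krt18*, a simple keratin, fell from 2091 ± 135 (SD, n = 3) in control to 381 ± 34.4 in Ins/Ins and 266 ± 26.1 in Ins/Del ESCs, with edgeR adjusted p-values of 2.63e-30 and 2.96e-32. *Cdx2*, a defining factor of trophectoderm, was at 30.1 ± 8.10 in control, 2.40 ± 0.874 in Ins/Ins, and 2.49 ± 1.90 in Ins/Del ESCs. *Eomes* was higher past the limit in both mutants, with log2 fold changes of 0.74 in Ins/Ins and 0.49 in Ins/Del. *Tfap2c* was higher past the limit in Ins/Ins, at 0.48 on this scale, and lower past it in Ins/Del, at -0.21. The 8 primitive endoderm markers split into 1 higher, 3 lower, and 4 not past the limit in Ins/Ins, and into 6 higher and 2 lower in Ins/Del. *Sox7* rose from 22.2 ± 7.65 to 70.8 ± 16.6 and 106 ± 1.59, whereas *Dab2*, an adaptor protein, fell from 265 ± 11.5 to 104 ± 9.62 and 109 ± 2.39.

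Of 5 tested fibroblast markers, *Col1a1*, *Col1a2*, *Col3a1*, and *Pdgfrb* were lower and *Thy1* was higher in both mutants. The fitted log2 fold changes of *Col1a1* were -4.04 in Ins/Ins and -3.55 in Ins/Del. Those of *Col1a2* were -5.28 and -4.76, and those of *Col3a1* were -5.31 and -4.78. *Col1a2* and *Col3a1* passed the filter on low counts only with their control libraries and could hardly be called higher. The filter therefore in part set the count of lower fibroblast markers. *Pdgfrb* fell less, with values of -1.28 and -1.23. Its level went from 48.6 ± 5.23 in control to 19.8 ± 5.25 in Ins/Ins and 20.5 ± 8.24 in Ins/Del ESCs. *Thy1* rose from 45.7 ± 1.10 to 246 ± 13.4 and 312 ± 12.8. The 10 ESC markers split into 7 higher and 2 lower in Ins/Ins, and into 6 higher and 1 lower in Ins/Del. *Zfp42*, a marker of naive ESCs, rose from 7602 ± 283 to 14229 ± 255 and 15812 ± 311. *Utf1* was lower in both mutants and fell from 4354 ± 299 to 3124 ± 178 and 2648 ± 197. *Pou5f1* was lower past the limit in Ins/Ins only, with a log2 fold change of -0.12.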
